A study of Mus musculus with 28 samples.

Results

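H3K27me3, the trimethyl mark on lysine 27 of histone H3, was compared between mouse lung tumours with and without a floxed Mll4 allele, using the 4 peak lists of this mark among the 24 antibody libraries of the series. The rule took the 2 lists with MLL in their deposited name (replicates 1 and 2 of the titles) against the 2 with RAS in their name (replicates 3 and 4), and together they held 149671 of 950445 peaks. Per the labels' protocols, tumours arose after Ad-CMV-Cre, an adenovirus that expresses Cre recombinase, in mice of 2 genotypes: K-RasLSL-G12D, in which Cre switches on mutant K-Ras, and K-RasLSL-G12D;Mll4fl/fl, in which Cre also removes floxed Mll4. The K-Ras allele and the virus were thus common to both genotypes, which differ by name in the Mll4 allele. The sample labels call every library mouse lung tumor and give no genotype per library, so a library's genotype rests on the name of its list. They also give no age, strain, sex or number of pooled mice, and do not say whether the libraries of a set came from separate animals, so p-values measure only the spread between these libraries, which may be partly technical. The adenovirus was not restricted to one cell type by its promoter, and each library came from whole tumour tissue, in which stroma and uninfected cells remain.

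Chromatin immunoprecipitation and sequencing (ChIP-seq) enriches the DNA wrapped around histones that bear one modification, and peaks are the places where reads pile up. H3K27me3 is written by Polycomb repressive complex PRC2 through its enzyme EZH2 and covers developmental genes that a tissue keeps silent, often as broad domains. It cannot sit on the same lysine as H3K27ac, the acetyl mark of active promoters and enhancers. Mll4, also named Kmt2d, encodes a methyltransferase that places H3K4me1 at enhancers, and its complex contains UTX, a demethylase that removes H3K27me3. The comparison thus asks whether tumours without this enzyme gained, lost or redistributed the Polycomb mark, and whether places marked in one genotype bore active marks in the other. In whole tissue, fewer cells that carry the mark and less of the mark per cell cannot be told apart.

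The lists of the other marks also differed between the sets. H3K27ac covered 20.0 and 22.1 Mb in the MLL libraries and 115.6 and 113.3 Mb in the RAS libraries. H3K4me1 covered 15.5 and 24.95 Mb against 46.8 and 55.6 Mb. H3K4me3, a promoter mark, covered 3.18 and 33.0 Mb against 26.97 and 32.6 Mb, and H3K79me2, a mark of transcribed gene bodies, covered 140.9 and 155.8 Mb against 142.7 and 114.9 Mb. The MLL lists thus spanned fewer bases than the RAS lists for H3K27ac and H3K4me1 as well as for H3K27me3, but not for H3K79me2. Libraries stood apart inside sets too. H3K27me3 replicate 3 had a shortest peak of 323 bp, against 82 to 117 bp in the other 3, and of the H3K27ac peaks of replicate 2, 82.7% overlapped the H3K79me2 list with the same number, while this share was 36.4% to 43.0% for the other 3. The main comparisons are also given without these libraries or the short H3K4me3 list of replicate 1. No gene annotation of the files' genome build (mm9) was used here, so regions are given by position without gene names, and neither the lung tumour label nor the loss of Mll4 was checked against genes. The files hold no read counts, so sequencing depth is unknown, and its part in these differences was not tested. With 2 libraries against 2 an exact permutation test has 6 relabellings and cannot give a p below 0.333, so no difference here could pass 0.05.

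The number of H3K27me3 peaks did not separate the genotypes. The MLL libraries had 20047 and 47790 peaks and the RAS libraries 38344 and 43490, so that the highest and the lowest count were both in MLL libraries. The geometric mean of the RAS libraries was 1.32-fold that of the MLL libraries (difference MLL minus RAS -0.40 on the log2 scale, exact two-sided permutation p 1, adjusted 1 over 11 tests). Without replicate 1 the sign of the difference turned, to 0.23 on the log2 scale.

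The stretch of genome under those peaks was longer in both RAS libraries. Peaks covered 10.8 and 23.7 Mb in the MLL libraries and 102.5 and 32.5 Mb in the RAS libraries, or 17.3 ± 9.13 Mb against 67.5 ± 49.5 Mb (mean ± SD, n = 2 each). The sets did not overlap, yet the excess was mostly that of replicate 3, which covered more than the other 3 libraries together. RAS exceeded MLL 3.60-fold by geometric means (log2 difference -1.85, exact permutation p 0.333, adjusted 0.524). The log2 difference was -1.02 without replicate 3 and -2.68 without replicate 4.

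Domains were broader in the RAS libraries. Joining peaks across gaps of up to 1 kb gave 11246 and 22313 domains in the MLL libraries and 23079 and 17205 in the RAS libraries. Their median length was 428 and 399 bp against 2315 and 581 bp, a 2.81-fold difference of geometric means (log2 difference -1.49, exact permutation p 0.333, adjusted 0.524). The log2 difference was -0.49 without replicate 3 and -2.49 without replicate 4, so the typical domain of replicate 4 was only modestly longer than those of the MLL libraries. With gaps of up to 1 kb closed, the long end of the distribution separated the sets more evenly. Domains of 10 kb or more numbered 136 and 405 in the MLL libraries and 2493 and 814 in the RAS libraries. They held 14.0% and 21.7% of the covered bases in the MLL libraries, against 45.9% and 40.4% in the RAS libraries. On this share the RAS libraries lay close together, and it was 2.47-fold higher in them by geometric means (log2 difference -1.30, exact permutation p 0.333, adjusted 0.524). The difference was smaller with gaps of up to 3 kb closed, at 38.9% and 47.4% against 62.8% and 63.6% (log2 difference -0.56), and for domains of 5 kb or more (-0.81). With no gap closed the share was 0% and 0.198% against 21.9% and 2.94%, so the RAS libraries then lay far apart. Domains under 1 kb held 28.4% and 20.7% of the covered bases in the MLL libraries and 3.68% and 12.6% in the RAS libraries, and those of 1 to 5 kb held 38.8% and 36.5% against 26.7% and 25.4%. Both classes thus held a larger share in both MLL libraries. The longest single domain was 29097 and 77104 bp in the MLL libraries and 177156 and 183918 bp in the RAS libraries. Inside domains of 10 kb or more, peaks filled 77.4% and 80.7% of the bases in the MLL libraries and 95.7% and 85.8% in the RAS libraries, so long domains were also more fragmented in the MLL lists.

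**Figure D1:**
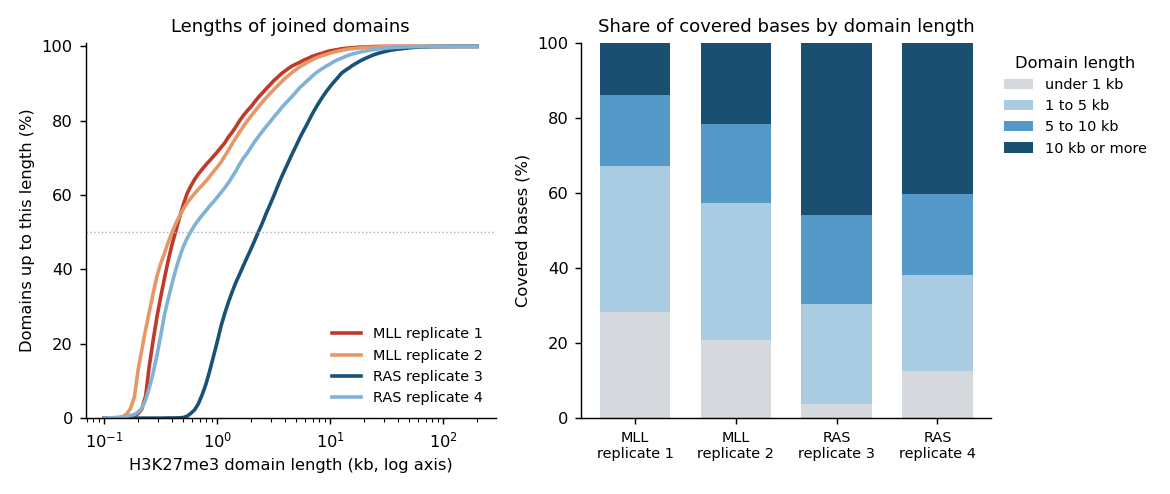
Left, the cumulative percentage of H3K27me3 domains (vertical axis) up to a given length in kb (horizontal log axis), 1 line per library; the dotted line marks 50%. Right, bars split each library's covered bases (%) by domain length; domains of 10 kb or more hold 14.0% and 21.7% in the MLL libraries and 45.9% and 40.4% in the RAS libraries.

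The difference in breadth was also present between lists of equal size. With the 20047 best-scored peaks of every library, the median domain was 428 and 718 bp in the MLL libraries and 3629 and 1208 bp in the RAS libraries. Domains of 10 kb or more then held 14.0% and 19.3% against 46.1% and 37.8% of the bases. The number 20047 is the whole list of replicate 1, which was thus not trimmed. The lowest score kept was 50.01 there, against 84.09, 113.83 and 96.67 in replicates 2, 3 and 4. Peak scores, which are the authors' own values, differed as well. The median score was 72.8 and 75.3 in the MLL libraries and 120.4 and 90.4 in the RAS libraries. Among peaks that scored at least 100, the median domain was 946 and 844 bp against 3383 and 1262 bp, with the sets still apart. What depth or signal over background contributed was not tested.

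The libraries of one genotype were not clearly more alike than those of different genotypes. As a measure of likeness, the Jaccard index divides the bases under peaks in both libraries by those under peaks in at least 1. It was 0.258 for the pair of MLL libraries and 0.280 for the RAS pair. The highest of the 6 values, 0.348, joined MLL replicate 2 with RAS replicate 4, and the lowest, 0.0952, joined the shortest list (replicate 1) with the longest (replicate 3). Pairs within a genotype averaged 0.0534 above pairs between genotypes (exact permutation p 0.333, adjusted 0.524), and this turned to -0.0243 without replicate 3. The broad list of replicate 3 took in most of the others: 90.9%, 89.4% and 90.8% of the bases of replicates 1, 2 and 4 lay inside its peaks. The shorter lists were thus largely subsets of the longest one, whatever their genotype.

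Joining all 4 lists gave 29032 regions, and a region was said to be carried by a library with at least 1 bp of peak in it. All 4 libraries carried 3888 regions, or 13.4%. These shared regions were the long ones, with a median of 10181 bp, and they held 89.9% and 78.3% of all covered bases of the MLL libraries and 50.7% and 78.99% of those of the RAS libraries. By bases, then, more than 50% of the H3K27me3 of each library lay in places marked in both genotypes.

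Regions of one genotype only were few on the MLL side. Both MLL libraries and neither RAS library carried 192 regions, 0.661% of all. They were 3.95% of the 4863 regions that both MLL libraries carried. Both RAS libraries and neither MLL library carried 1987 regions, 6.84% of all and 23.1% of the 8610 that both RAS libraries carried. Pairs of libraries from different sets gave counts as large. The mixed pair of MLL replicate 2 and RAS replicate 3 alone shared 2660 regions, more than the RAS pair, and the mixed pair of replicates 2 and 4 shared 234, more than the MLL pair. The other mixed pairs, replicates 1 and 3 and replicates 1 and 4, shared 510 and 56. Replicate 3 alone carried 9751 regions.

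**Figure D2:**
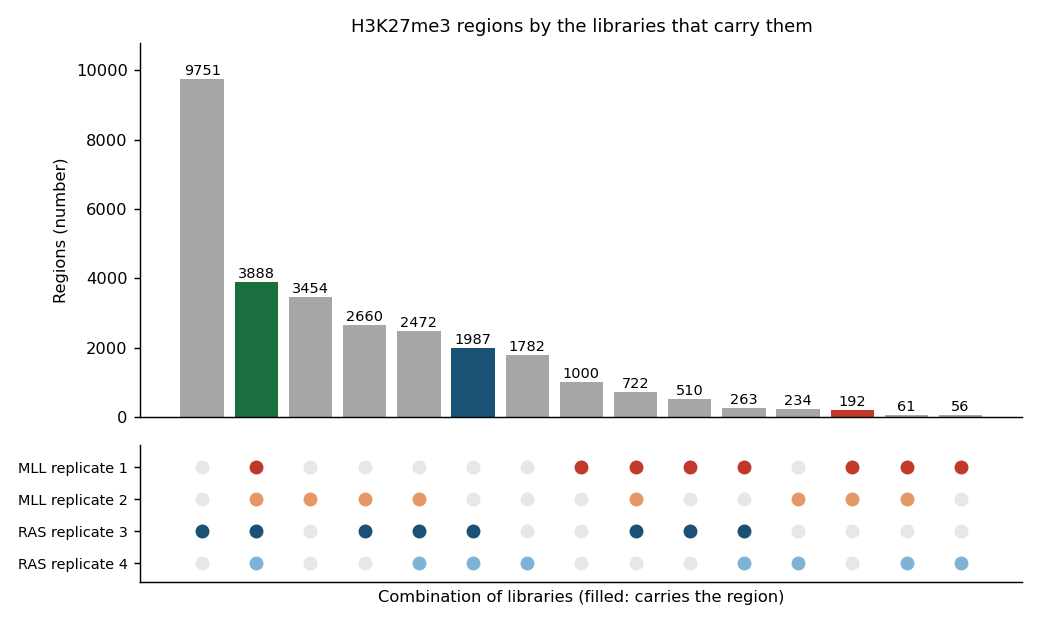
Bars give the number of H3K27me3 regions (vertical axis) carried by each combination of libraries, and filled dots below name the libraries; red marks both MLL libraries only (192), blue both RAS libraries only (1987) and green all 4 (3888). The mixed pair of replicates 2 and 3 (2660) exceeds the RAS pair.

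The MLL-only regions were short and weak. Their median length was 912 bp, none reached 10 kb and the longest was 6236 bp. They held 0.645% and 0.335% of the covered bases of MLL replicates 1 and 2. The best score in a region had a median of 57.7 and 66.6 in these libraries, where 50 is the lowest score in the lists, and with regions rebuilt from peaks that scored at least 100, 7 were MLL-only. Of the 192, 118, or 61.5%, were within 10 kb of a peak of a RAS library, and 28 were more than 100 kb away. The same share was not computed for regions of other kinds, so whether such closeness is particular to MLL-only regions is not known. Leaving out any 1 library relaxes the rule, and the number was then 3686 without replicate 1, 1231 without replicate 2, 1122 without replicate 3 and 287 without replicate 4.

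The RAS-only regions were longer, with a median of 2917 bp and a maximum of 37037 bp, and 90 of them reached 10 kb. They held 6.42% and 5.01% of the covered bases of RAS replicates 3 and 4. Replicate 3 gave them most of their breadth, with a median of 2424 bp of peak in a region against 442 bp in replicate 4, and a median best score of 148 against 73.5. Within 10 kb of an MLL peak lay 979, or 49.3%, and 251 were more than 100 kb away, again with no share of other regions to set beside them. The count was 1007 with equal numbers of peaks. It was 2259 without replicate 1, 4525 without replicate 2, 6554 without replicate 3 and 11978 without replicate 4.

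The best covered RAS-only region was chr19:55244277-55281313 (mm9, as are all positions below), where peaks covered 36567 bp in replicate 3 and 33345 bp in replicate 4. The nearest H3K27me3 peak of an MLL library was 20459 bp away in replicate 2 and 126579 bp away in replicate 1. H3K27ac touched this region in every library, with 1223 and 807 bp in the MLL libraries and 4101 and 823 bp in the RAS libraries, so its acetylation did not mirror the H3K27me3 call. The next, chr19:57382663-57403468, had 20520 and 13664 bp of H3K27me3 in the RAS libraries. There H3K79me2 covered 5263 and 8065 bp in the MLL libraries, 838 bp in replicate 3 and none in replicate 4. The other 2, chr6:54455967-54482021 and chr6:30559540-30576311, carried 21348 and 4961 bp and 16766 and 9418 bp of H3K27me3 in replicates 3 and 4. Neither had a peak of any of the other 5 marks in any library.

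The surroundings of the second region held the most RAS-only regions of any 250-kb window, 9, a number that 1 other window, on chromosome 8, also reached. It was picked after its values were seen. In chr19:57250001-57500000, H3K27me3 covered 0.260 and 0.919 kb in the MLL libraries and 108.6 and 37.2 kb in the RAS libraries. H3K79me2 ran the other way, with 101.4 and 141.5 kb in the MLL libraries and 28.3 and 16.1 kb in the RAS libraries. The H3K27me3 values follow from how the window was picked, and the H3K79me2 values were known when it was singled out. H3K79me2 was higher in both MLL libraries in 4 of the 5 windows with the most RAS-only regions, and in the fifth, on chromosome 12, the sets overlapped (33.7 and 66.4 kb against 65.6 and 61.4 kb). Over all 4931 windows with an H3K27me3 region, H3K79me2 covered more bases in both MLL libraries than in both RAS libraries in 33.4%, and in 39.6% of the 1279 windows with a RAS-only region; in the 64 windows with at least 4 RAS-only regions it was 37.5%. The reverse order was met in 4.04%, 3.99% and 6.25%. This order of H3K79me2 was thus the more frequent one in windows of every kind, and windows with many RAS-only regions had it about as often as the others. H3K27ac did not follow H3K79me2: it covered 10.1 and 4.78 kb in the MLL libraries and 25.2 and 25.8 kb in the RAS libraries. Of the 1279 windows that held RAS-only regions, 864 held just 1.

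The best covered MLL-only region was chr4:137219450-137223956, 4507 bp long. H3K27me3 peaks covered 2457 bp of it in replicate 1 and 3312 bp in replicate 2, and none in the RAS libraries. H3K27ac showed the reverse, covering all 4507 bp in both RAS libraries and nothing in either MLL library. The RAS libraries also had H3K4me3 on 1552 and 1802 bp and H3K4me1 on 1082 and 1873 bp, and the MLL libraries had neither. The region thus bore marks commonly found at active promoters in both RAS libraries and the Polycomb mark in both MLL libraries. Active marks in the RAS libraries extended beyond it. With 50 kb on each side, H3K27ac covered 1.77 and 0.766 kb in the MLL libraries and 52.1 and 55.4 kb in the RAS libraries, and H3K79me2 covered 6.72 and 8.48 kb against 25.7 and 27.8 kb. H3K27me3 in the same window covered 2.46 and 5.14 kb in the MLL libraries, 3.05 kb in replicate 3 and none in replicate 4.

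**Figure D3:**
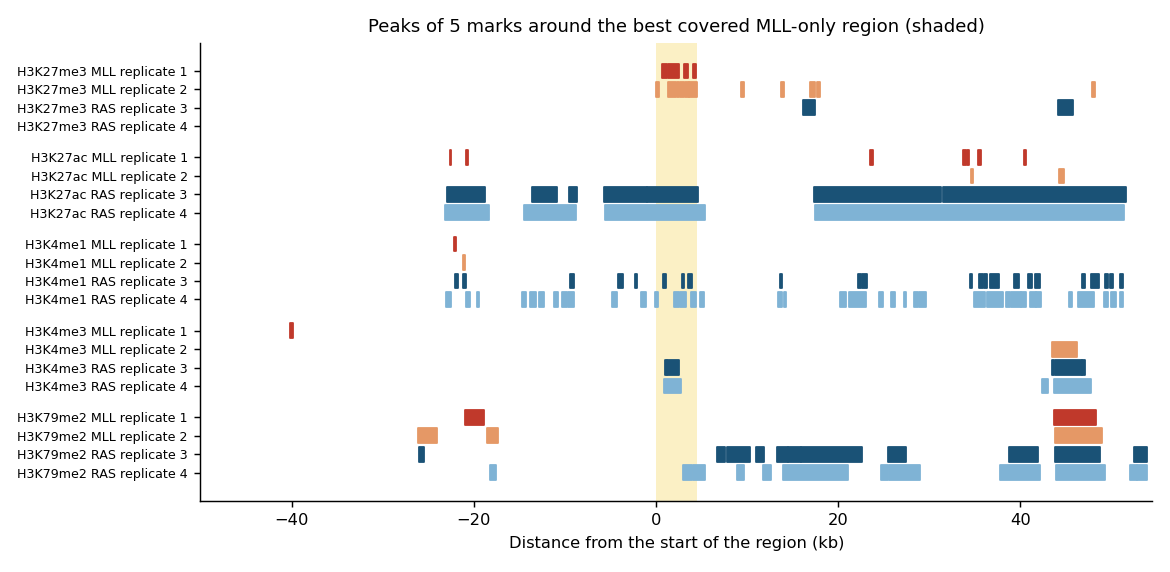
Bars show peaks of 5 marks in each library along the distance in kb from the start of the best covered MLL-only region (shaded, 4507 bp). H3K27me3 lies in the shaded stretch in both MLL libraries only, and H3K27ac, H3K4me1 and H3K4me3 lie there in both RAS libraries only.

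The other 3 MLL-only regions with the most covered bases did not share this pattern. At chr8:123713293-123719528 H3K27me3 covered 979 and 2666 bp in the MLL libraries, and a RAS replicate 3 peak lay 3115 bp away. At chr14:69914235-69917509 it covered 660 and 1818 bp, with a replicate 4 peak 3869 bp away. Neither bore a peak of another mark in any library. The region chr4:155628430-155630084, with 1485 and 1414 bp, was isolated, its nearest RAS peak being 269611 bp away. It bore H3K4me1 in both MLL libraries (411 and 888 bp) and in replicate 3 (1115 bp).

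H3K27ac, the mark that excludes H3K27me3 on the same lysine, was the active mark whose presence on MLL-only regions differed most between the sets. It touched 1 and 1 of the 192 regions in the MLL libraries and 10 and 12 in the RAS libraries, that is 0.521% and 0.521% against 5.21% and 6.25%. The difference was -5.21 percentage points (exact permutation p 0.333, adjusted 0.524) and kept its sign under all 14 alternatives. Its size varied, from -2.13 without replicate 1 to -28.6 at scores of at least 100, where 7 regions met the rule, and it was -3.31 without replicate 4. Over all 29032 regions the same shares were 2.30% and 0.513% against 4.89% and 4.42%, so that with all lengths pooled the RAS values on MLL-only regions were near this background. Regions of like length gave another picture for the 102 MLL-only regions under 1 kb, where H3K27ac touched 5.88% and 4.90% in the RAS libraries against 2.21% and 1.88% of all such regions. At 1 to 5 kb the values were 4.49% and 7.87% against 4.57% and 4.35%. The H3K27ac lists of the RAS libraries also covered 5.44-fold as many bases by geometric means. Over all regions H3K27ac was likewise the active mark that differed most, by -3.25 percentage points. On the longer regions carried by all 4 libraries it touched 4.04% and 0.617% against 8.92% and 6.82%, a difference of -5.54. A difference of this size was thus not particular to the MLL-only regions. Regions with H3K27ac in both RAS libraries and in neither MLL library numbered 8 of 192, or 4.17%, against 1.66% of all regions and 2.80% of those carried by all 4 libraries. Counting only replicate 1 on the MLL side, 9 of 192 had this pattern (4.69%), against 1.72% of all regions. Of the 8, H3K27ac filled the whole region in both RAS libraries in 4: those at chr4:137219450-137223956, chr15:100579079-100580916, chr15:89153019-89153515 and chr16:17560407-17560861.

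H3K4me1, the product of MLL4, touched 1.56% and 2.08% of the MLL-only regions in the MLL libraries and 4.69% and 4.69% in the RAS libraries (difference -2.86 percentage points, exact permutation p 0.333, adjusted 0.524). All regions gave 6.23% and 7.93% against 5.67% and 6.73%. Both sets were thus below this background of all lengths. Among regions under 1 kb, the RAS libraries had H3K4me1 on 2.94% and 2.94% of MLL-only regions and on 0.857% and 1.64% of all regions, and the MLL libraries on 1.96% and 0.980% against 0.709% and 0.975%, so that neither set was below its background there. At 1 to 5 kb the RAS libraries had it on 6.74% and 6.74% against 3.50% and 4.93%, and the MLL libraries on 1.12% and 3.37% against 3.74% and 4.85%. The RAS shares rest on 3 and 6 regions per library, and the MLL shares on 1 to 3. The difference between the sets was -0.90 without replicate 1, -4.46 without replicate 3 and 0 without replicate 4. H3K4me1 in both RAS libraries and neither MLL library was found on 5 MLL-only regions (2.60%, against 0.713% of all regions), 3 of which were among the 8 with H3K27ac.

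H3K4me3 gave no stable order on the MLL-only regions. It touched 1.56% and 4.69% in the MLL libraries and 2.60% and 2.60% in the RAS libraries (difference 0.52 percentage points, exact permutation p 1, adjusted 1). Without the short H3K4me3 list of replicate 1 the difference was 2.08. All regions gave 2.91% and 8.16% against 8.62% and 6.81%, so with all lengths pooled every library was below its background. Under 1 kb, H3K4me3 touched 1.96% and 6.86% of MLL-only regions in the MLL libraries, against 0.522% and 1.36% of all. In the RAS libraries it touched 2.94% and 2.94% there, against 1.32% and 1.23%, so every library was above background, on 2 to 7 regions each. At 1 to 5 kb every library was below it, with 1.12% to 2.25% against 1.42% to 5.44%. One MLL-only region, the chromosome 4 region with full acetylation, had H3K4me3 in both RAS libraries and neither MLL library, 0.521% against 0.427% of all regions.

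At least 1 of H3K4me1, H3K4me3 and H3K27ac touched 16 of the 192 MLL-only regions (8.33%) in each RAS library, against 12.1% and 11.4% of all regions. That background pools all lengths. Among regions under 1 kb the RAS libraries were above background on MLL-only regions for H3K4me1, H3K4me3 and H3K27ac, with the values given above. For H3K4me3 both MLL libraries were above it there as well.

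On the RAS-only regions, at least 1 of the 3 active marks touched 9.86% and 12.1% in the MLL libraries, against 8.74% and 11.8% of all regions. The marks differed in this respect. H3K4me1 touched 6.09% and 7.10% of the 1987 regions in the MLL libraries and 4.63% and 5.38% in the RAS libraries (difference 1.59 percentage points, exact permutation p 0.333, adjusted 0.524). The difference was 0.16 without replicate 3 and 0.72 without replicate 4. The MLL values were close to the background of all regions given above. Both MLL libraries and neither RAS library had H3K4me1 on 21 regions (1.06%, against 1.21% of all), while 12 had it in both RAS libraries and neither MLL library (0.604%, against 0.713%). With all lengths pooled, H3K4me1 in the MLL libraries was thus not above its background on regions that lacked the Polycomb mark there. At 1 to 5 kb it touched 4.15% and 3.93% of RAS-only regions in these libraries against 3.74% and 4.85% of all such regions.

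H3K27ac touched 4.53% and 0.755% of RAS-only regions in the MLL libraries and 5.84% and 3.37% in the RAS libraries (difference -1.96 percentage points, exact permutation p 0.667, adjusted 0.917). All regions gave 2.30% and 0.513% against 4.89% and 4.42%, so that both MLL libraries were above their background and the RAS libraries lay on either side of theirs. At 10 kb or more the MLL libraries had H3K27ac on 20.0% and 7.78% of RAS-only regions against 6.71% and 1.36% of all such regions, and the RAS libraries on 23.3% and 17.8% against 11.4% and 9.65%. At 5 to 10 kb the MLL values were 8.59% and 1.01% against 4.49% and 0.656%. At 1 to 5 kb they were 2.69% and 0.291% against 2.09% and 0.435%. The excess in the MLL libraries thus lay mostly in the longer regions, where the RAS libraries also exceeded their background at 10 kb or more. In replicate 2 it rests on few regions, 15 of all lengths. Without replicate 2 of H3K27ac the difference was -0.08, and it was -0.28 without replicate 3, -0.85 without replicate 2 of all marks and -3.74 without replicate 1. The pattern of H3K27ac in both MLL libraries and neither RAS library was met on 3 regions in all (0.0103%), and all 3 were RAS-only. Replicate 1 alone had H3K27ac, with none in the RAS libraries, on 28 RAS-only regions (1.41%, against 0.617% of all regions). H3K4me3 touched 3.32% and 8.81% against 8.71% and 7.65% (difference -2.11 percentage points, exact permutation p 1, adjusted 1), and without the short replicate 1 list the difference was 0.63. All regions gave 2.91% and 8.16% against 8.62% and 6.81% for H3K4me3, a difference of -2.18. With all lengths pooled, its shares on RAS-only regions were thus near background. Only 1 RAS-only region had H3K4me3 in both MLL libraries and neither RAS library, 0.0503% against 0.0827% of all regions.

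H3K79me2, which follows transcription elongation, was more frequent on RAS-only regions in the MLL libraries, a comparison added after its values were seen and given here as a description. It touched 4.43% and 4.08% there and 2.01% and 0.856% in the RAS libraries, where these regions bear H3K27me3, and the sets did not overlap. All regions gave 2.65% and 2.37% against 1.55% and 1.47%, in the same order but closer together. The excess over all regions lay in the longer RAS-only regions: at 1 to 5 kb, which held 1375 of them, the MLL libraries had H3K79me2 on 2.33% and 2.25% against 2.45% and 2.14% of all such regions, while at 5 to 10 kb they had it on 9.85% and 8.84% against 4.38% and 3.54%. In the RAS libraries the 1 to 5 kb values were 1.09% and 0.436% against 1.49% and 1.59%, and the 5 to 10 kb values 3.54% and 1.26% against 1.81% and 1.78%. At 10 kb or more both sets exceeded the background, with 16.7% and 15.6% against 5.58% and 5.01% in the MLL libraries and 11.1% and 6.67% against 3.13% and 2.52% in the RAS libraries. Without replicate 3, 6554 regions met the rule, and H3K79me2 touched 2.79% and 2.52% of them in the MLL libraries and 0.656% in replicate 4. Without replicate 4 the difference was 1.52 percentage points, against 2.82 with all libraries. H3K79me2 in both MLL libraries and neither RAS library was found on 32 RAS-only regions (1.61%, against 0.682% of all regions), and the reverse on 1 (0.0503%, against 0.0861%). In 12 of the 32 it filled at least 50% of the region in both MLL libraries. One example is chr10:60259817-60269416, with H3K27me3 on 8727 and 4130 bp in the RAS libraries and H3K79me2 on 9074 and 8656 bp in the MLL libraries. The total cover of the H3K79me2 lists, given above, overlapped between the sets, while their peaks were wider in both MLL libraries (median 2596 and 2773 bp against 1669 and 1100 bp). The part of that width in these counts was not tested.

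**Figure D4:**
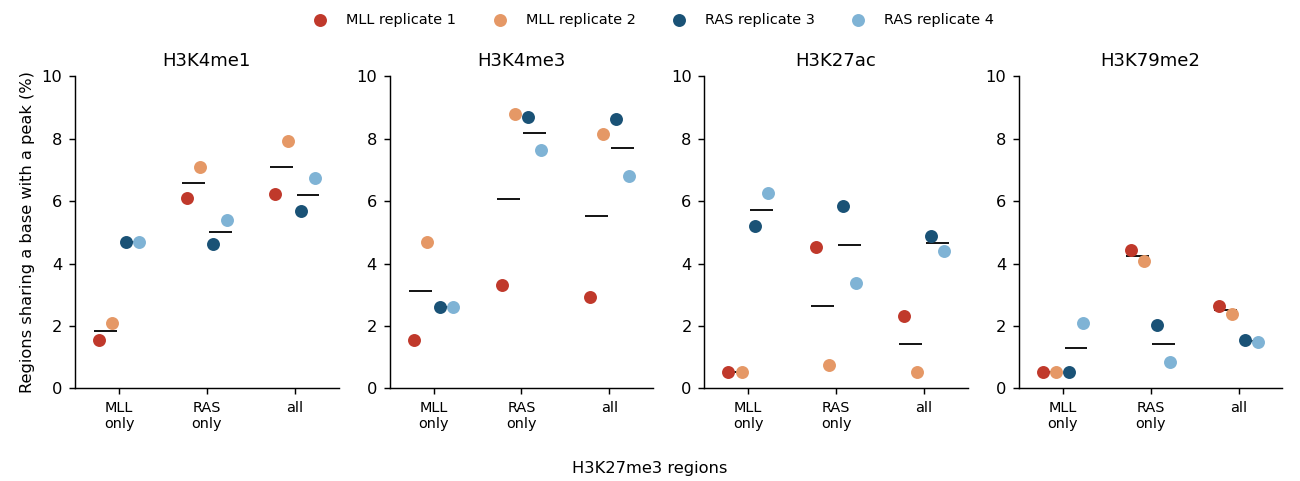
Points give the percentage of H3K27me3 regions (vertical axis) that share at least 1 bp with a peak of the named mark, per library, for the 192 MLL-only, the 1987 RAS-only and all 29032 regions; lines are means of 2 libraries. On MLL-only regions H3K27ac is at 0.521% in both MLL libraries and at 5.21% and 6.25% in the RAS libraries, and H3K79me2 on RAS-only regions is at 4.43% and 4.08% against 2.01% and 0.856%.

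In the 3888 regions that all libraries carried, the genotypes differed in how much of the region was covered. The median covered length was 1044 and 2663 bp in the MLL libraries and 9386 and 3475 bp in the RAS libraries. Both RAS libraries covered more bases than both MLL libraries in 2534 regions, or 65.2%, and the reverse occurred in none, 0%. That order followed the total size of the lists. When each value was divided by the bases covered in its library, the RAS libraries were both higher in 15.5% of the shared regions and the MLL libraries in 29.9%. Which genotype had more H3K27me3 in shared regions thus depended on the scaling. H3K4me1 touched 24.7% and 32.0% of the shared regions in the MLL libraries and 21.3% and 20.3% in the RAS libraries, more often than the one-genotype regions, which were shorter. At 1 to 5 kb the shares were 9.45% and 13.9% against 6.42% and 6.60% on shared regions, 4.15% and 3.93% against 2.18% and 2.98% on RAS-only regions, and 1.12% and 3.37% against 6.74% and 6.74% on MLL-only regions. In the RAS libraries MLL-only regions of that length thus had H3K4me1 about as often as shared ones.

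Replicate 3 covered the most bases in 3820 shared regions, 98.3%, and the fewest in 3. Those 3 were among the longest of all, and they were picked out after their values were seen. Of the 11 shared regions of 100 kb or more, replicate 3 was the most covered in 7, with at least 93.1% of the region under peaks, and replicate 4 in the other 4. At chr11:96102711-96219230 peaks covered 36.5 and 65.1 kb in the MLL libraries, 6.07 kb in replicate 3 and 103.7 kb in replicate 4. At chr15:102723766-102908617 they covered 94.9 and 119.8 kb against 46.4 and 172.3 kb. At chr2:74480494-74593534 the values were 62.2 and 76.5 kb against 59.3 and 96.2 kb, and at chr6:52093548-52283624 they were 70.4 and 97.4 kb against 80.3 and 172.0 kb. In 3 of these regions the RAS libraries were the 2 extremes and the MLL libraries lay between them, and at the chromosome 6 region replicate 1 was the lowest.

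The missing cover of replicate 3 was in single blocks. The longest uncovered stretch was 53.1 kb at the chromosome 2 region, 106.6 kb at chromosome 6, 108.9 kb at chromosome 11 and 131.7 kb at chromosome 15. Peaks of replicate 4 covered 88.5%, 97.4%, 93.1% and 99.2% of the same stretches, those of replicate 2 covered 68.1%, 50.3%, 56.5% and 75.4%, and those of replicate 1 covered 53.9%, 34.6%, 32.4% and 58.6%. The 4 regions held 3, 11, 2 and 12 peaks of replicate 3, which by the definition of the blocks all lay outside them. In the block of the chromosome 6 region replicate 3 had H3K4me3 on 10.7 kb and H3K27ac on 7.46 kb, and replicate 4, which was under H3K27me3 there, had H3K4me3 on 12.5 kb and no H3K27ac. In the MLL libraries H3K4me3 covered 8095 and 23462 bp of that block and H3K27ac 934 and 156 bp. In the chromosome 15 block no library had H3K27ac, and H3K4me3 covered 2743 bp in replicate 3, less than the 9865 bp in replicate 4 and the 8059 and 4011 bp in the MLL libraries, all of which had H3K27me3 peaks there. At the chromosome 11 block replicate 3 had 4.17 kb of H3K27ac, replicate 1 had 509 bp and the others none, and at chromosome 2 no library had any. H3K79me2 lay in the chromosome 6 and chromosome 11 blocks in both MLL libraries and in neither RAS library. H3K4me3 in these blocks was thus not limited to the library that lacked H3K27me3 there.

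**Figure D5:**
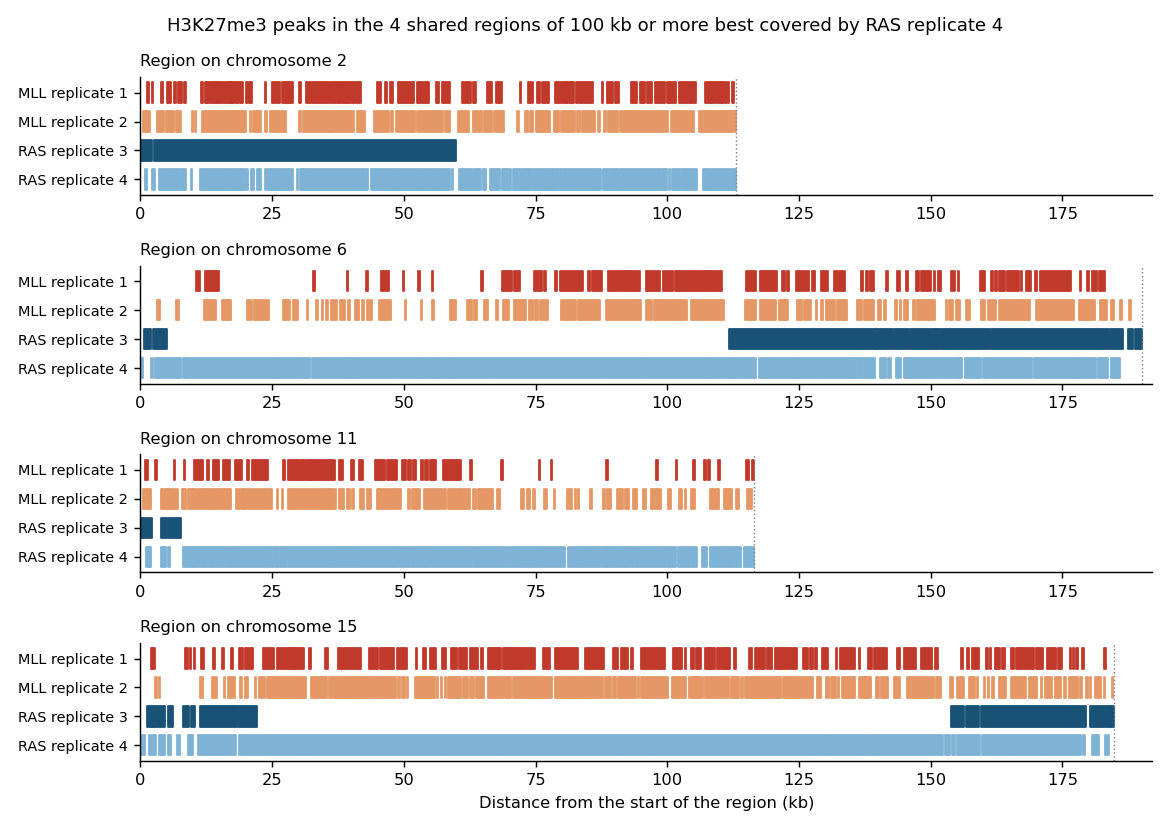
Bars show H3K27me3 peaks of each library along the distance in kb from the start of the 4 shared regions of 100 kb or more that replicate 4 covered most; dotted lines mark region ends. Replicate 3 lacks peaks over single blocks of 53.1 to 131.7 kb where replicates 1, 2 and 4 have them.

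The single shared region with the most cover was chr19:44703982-44891760, where peaks covered 62.9 and 114.8 kb in the MLL libraries and 174.7 and 156.0 kb in the RAS libraries. The region chr2:33378454-33548807 had 46.1 and 86.3 kb against 166.8 and 113.1 kb. In both, the RAS libraries were above the MLL libraries, and no library had an H3K27ac peak.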

How the data were processed

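The 4 H3K27me3 peak lists and the 20 lists of the other 5 marks were used as deposited; the 4 input samples were not analysed here. Reads were handled by the authors with CASAVA 1.7, Bowtie, MACS and deepTools on mm9, per the submitters' processing notes, and settings are not given in the sources used here. Each list holds positions and a score per peak; the deposited score starts at 50, its definition is not stated, and it served only to rank or filter peaks. List names pair each antibody library with a library G of the same tag. Peaks were joined over gaps of up to 1 kb, and overlap meant at least 1 bp, with Python 3.11.15, numpy 2.4.6 and pandas 2.3.3 (plots: matplotlib 3.10.9). The interval steps were tested on simulated data. Set labels were permuted exactly and two-sided, on log2 values for lengths and numbers and on percentages for marks, with Benjamini-Hochberg adjustment over 11 tests. The named regions were the 4 with the largest mean cover in the carrying libraries, for MLL-only, RAS-only and all-library regions; others named were picked after their values were seen. The comparison and its lists were chosen with earlier results of these data known. Planned gene lists were not computed, since the gene tables at hand are of another build.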

Additional observations from a re-analysis of the deposited data

Results flagged for a closer look

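H3K27me3 replicate 3, a RAS library, lay far from the other 3 libraries of the mark in 3 measures. Its median peak width was 1487 bp where the others had 337 to 455 bp, its shortest peak was 323 bp, against 82 to 117 bp, and its median domain was 2315 bp, against 399 to 581 bp. In each, the gap to the nearest library was larger than Dixon's test allows for 4 values. The rule was applied to 20 groups of values and chance alone picks about 1 in 20, and these 3 measures all describe width in 1 library.

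Peak width moved in opposite directions in H3K27me3 and H3K79me2. H3K27me3 peaks were wider in both RAS libraries, whereas the median H3K79me2 width differed by -0.99 (log2, RAS minus MLL), from 2596 and 2773 bp in the MLL libraries to 1669 and 1100 bp in the RAS libraries. This difference between the marks was not tested.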

How the results depend on the processing

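Of 148 alternatives, 119 kept the direction, or for counts stayed within 1.5 times; no test could pass 0.05 under any. Covered length, median domain length, bases in domains of 10 kb or more, and H3K27ac on MLL-only and on RAS-only regions kept their direction under every alternative that gave a value. With no gap closed, replicate 1 had no domain of 10 kb, so that log2 difference gave no value. Unless stated, the cause of a change was not tested. MLL-only regions numbered 7 at scores of at least 100, 11 when 500 bp were required in each carrying library, 74 when more than 10 kb from any peak of the other set, and 287 to 3686 when leaving out 1 library. RAS-only regions numbered 1007 with equal peak numbers, 3931 with no gap closed, 1283 with gaps of up to 3 kb closed, 886 with 500 bp required, 1008 beyond 10 kb, and 2259 to 11978 when leaving out 1 library. H3K4me3 on MLL-only regions (percentage points, MLL minus RAS) was -21.4 at scores of at least 100, -0.76 with equal peaks, -0.60 with 3-kb gaps, -0.52 with 200 bp shared, -0.52 at mark scores of at least 100, -1.82 within 5 kb, and -2.14 to 2.08 when leaving out 1 library. H3K4me3 on RAS-only regions ranged from -5.49 to 0.63 when leaving out 1 library, H3K4me1 on MLL-only regions from -4.46 to 0, peak number from -1.03 to 0.23 (log2) and the Jaccard difference from -0.0243 to 0.124. H3K4me1 on RAS-only regions was -0.33 at mark scores of at least 100, and the similarity difference was -0.000537 with the overlap coefficient. The distance of 5 kb, the 10-kb separation and leaving out single libraries of H3K27ac or H3K4me3, and those for H3K79me2, were chosen after seeing the data. No paired analysis was possible because the MLL libraries have replicate numbers 1 and 2 and the RAS libraries 3 and 4. Unknown depth limits every number and length given.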

Other observations

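H3K27me3 was spread unevenly over chromosomes, and its spread differed between libraries. Chromosome 6, which holds the K-Ras gene, had 4.90% and 4.87% of the covered bases in the MLL libraries and 6.72% and 7.28% in the RAS libraries, and 216 of the 1987 RAS-only regions, 10.9%, against 5.68% of the regions carried by all 4 libraries. H3K4me1 gave 4.78% and 5.08% against 6.44% and 8.85% on the same chromosome, and H3K79me2 5.82% and 5.94% against 5.97% and 7.06%, each with both RAS libraries higher. The sets overlapped there for H3K4me3 (5.28% and 5.03% against 5.06% and 5.54%), H3K27ac (5.46% and 6.28% against 5.92% and 6.98%) and H3K9me3 (3.24% and 3.54% against 3.33% and 6.71%). The sets did not overlap on 11 of 20 chromosomes for H3K27me3, the RAS libraries being higher on 5 and the MLL libraries on 6. Chromosome 6 was not particular in this: the RAS mean share was 1.43 times the MLL mean there, against 1.40 on chromosome 8, 1.58 on chromosome 18 and 2.15 on the X chromosome, where both shares were very low. Chromosome 12 had 3.03% and 2.93% against 4.37% and 4.58%. On chromosome 8 both RAS libraries were also higher for H3K4me1, H3K4me3, H3K79me2 and H3K9me3.

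Other chromosomes set single RAS libraries apart. Chromosome 15 held 7.53% of the H3K27me3 bases in replicate 4, against 3.32% to 4.99% in the other 3 libraries, and 10.1% of its H3K4me1 bases, against 3.48% to 4.88%. Chromosome 16 held 3.87% of the H3K27me3 bases in replicate 3, against 1.71% to 1.76%, and 6.02% of its H3K4me1 bases, against 2.90% to 3.24%. On both chromosomes the same replicate number was the highest in all 6 marks, with H3K9me3 on chromosome 15 at 11.3% in replicate 4 against 1.59% to 2.33%. Copies of a chromosome were not counted here, so in these shares more copies and more of a mark per copy cannot be told apart. The X chromosome held 0.0542% to 0.200% of the H3K27me3 bases.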
